A study of Mus musculus with 8 samples.

Results

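The genes of hepatic glucose production were followed in liver RNA from mice that carried C2-AKT and from control mice, all on a high-fat diet. The group holds 10 genes chosen by symbol: G6pc, Slc37a4, Fbp1, Pck1, Pck2, Pcx, Gpd1, Pdk4, Ppargc1a and Creb3l3. They are 10 of 45777 genes in the deposited table, and each had enough reads to be among the 15686 genes tested. None of the 10 differed between the genotypes past the threshold of edgeR's quasi-likelihood test. G6pc had the highest estimate, with a mean of 235 CPM (counts per M of the counts that passed the filter, M for mega, scaled between libraries) in C2-AKT and 150 in control livers, but its groups overlapped. Another contrast ran across the genotypes. In a comparison chosen after the values were seen, Gpd1, Creb3l3, Pcx and Pck2 were lower in the pair of libraries whose titles carry no ending, a library of each genotype, as were 8.31% of all genes tested.

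The 8 libraries came from livers of male C57BL6 mice, 4 with the genotype C2-AKT and 4 with the genotype wild type; C2-AKT (-/-). C2-AKT was encoded at ROSA26 and switched on in hepatocytes by Alb-Cre, a recombinase under the albumin promoter, a promoter of hepatocytes and not of the other cells of the liver. The control label reads as lacking C2-AKT. It does not mention Cre, and it does not spell out whether an unrecombined allele was present. The high-fat diet began in all mice when they were 8 weeks old and lasted 10 weeks. Whether livers were taken from fed or fasted animals, and at what hour, the sources used here do not give. Polyadenylated RNA was sequenced. The labels name no animal for a library, so a p-value here reflects only how far the libraries spread, which may be technical.

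Liver releases glucose in the fasted state by building it from lactate, alanine and glycerol and by freeing it from glycogen. Pyruvate is carboxylated in mitochondria, turned into phosphoenolpyruvate, carried back up the glycolytic path, and dephosphorylated in the endoplasmic reticulum. Glucagon, through cAMP, CREB and CRTC proteins, and glucocorticoids raise the transcription of the controlling enzymes. Insulin lowers it, in large part because AKT phosphorylates FOXO1 and keeps it out of the nucleus.

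Library depth lay between 51.42 and 63.78 M counts. C2-AKT replicate 5 stood apart. Its pancreatic acinar markers summed to 85039 CPM of all counts. Its pancreatic endocrine markers summed to 65.2 CPM, against at most 0.117 in the other 7 libraries. In C2-AKT replicate 4 the acinar markers summed to 17.2 CPM, and none of the 10 was at 0 counts. The remaining libraries had acinar sums of 0.107 to 2.22 CPM. Hepatocyte markers were high in every library, with summed levels of 77324 to 98681 CPM in control and 74737 to 101449 CPM in C2-AKT libraries. Periportal markers, which mark the zone where glucose production is strongest, summed to 3481 to 4754 CPM in control and 2964 to 5316 CPM in C2-AKT libraries. Akt1 and Akt2, which encode AKT kinases, had log2 fold changes of 0.04 ± 0.18 and -0.14 ± 0.17 (SE) and were not called by edgeR; whether transgene reads would count there is not known. Gt(ROSA)26Sor, the transcript of the locus that holds the allele, averaged 6.12 ± 1.55 CPM over control libraries and 0.422 ± 0.331 CPM over C2-AKT libraries (SD, n = 4 each) without overlap, and its adjusted p by edgeR was 0.181. In bulk liver RNA, fewer cells of a type and less RNA per cell cannot be told apart.

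The promoters of G6pc, Pck1 and Ppargc1a are shown because insulin and glucagon act on these genes through short motifs near their starts. The sequences run 5′ to 3′ from 250 bases before to 50 bases after the start, are taken from RefSeq on build GRCm38.p6, and carry in capitals each match to a motif searched for on both strands. The motifs were the insulin response core CAAAACA, the FOXO core written GTAAACA, the palindromic cAMP response element written TGACGTCA, and the shorter cAMP motif TGACG, which also lies within the palindrome.
G6pc promoter, chr11:101367466-101367765, plus strand: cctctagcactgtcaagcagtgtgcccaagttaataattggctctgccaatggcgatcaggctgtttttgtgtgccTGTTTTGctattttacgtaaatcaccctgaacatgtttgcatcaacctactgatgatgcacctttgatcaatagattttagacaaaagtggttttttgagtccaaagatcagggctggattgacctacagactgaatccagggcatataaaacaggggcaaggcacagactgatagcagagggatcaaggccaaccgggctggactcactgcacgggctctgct
Pck1 promoter, chr2:173152823-173153122, plus strand: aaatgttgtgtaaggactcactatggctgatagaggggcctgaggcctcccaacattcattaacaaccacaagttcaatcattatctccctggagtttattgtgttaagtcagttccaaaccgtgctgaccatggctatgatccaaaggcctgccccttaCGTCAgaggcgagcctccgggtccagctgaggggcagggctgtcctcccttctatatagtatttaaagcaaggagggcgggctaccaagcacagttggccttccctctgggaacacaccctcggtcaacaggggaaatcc
Ppargc1a promoter, chr5:51567676-51567975, minus strand: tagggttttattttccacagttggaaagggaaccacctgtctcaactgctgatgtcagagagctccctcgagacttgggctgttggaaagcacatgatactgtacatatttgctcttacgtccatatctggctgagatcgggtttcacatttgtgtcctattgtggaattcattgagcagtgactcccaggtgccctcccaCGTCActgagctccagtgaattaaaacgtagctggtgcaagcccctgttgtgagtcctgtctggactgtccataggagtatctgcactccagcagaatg
In G6pc the capitals are TGTTTTG, the insulin response core on the opposite strand, 174 bases before the start. In Pck1 they are CGTCA, the shorter cAMP motif on the opposite strand, 90 bases before the start. In Ppargc1a the same letters lie 49 bases before the start, which is an inner start, since the annotated gene extends to 52115853. RefSeq windows were matched for 9 of the 10 genes, 13 windows in all, and Gpd1 was not matched. The insulin response core lay in 3 of the 13 windows, those of G6pc, Pck2 and the first of Creb3l3, and in 6.28% of all 32851 promoters. The shorter cAMP motif lay in 5 of the 13 windows and in 20.8% of all promoters. The 5 were those of Pck1 and Ppargc1a, windows 1 and 2 of Slc37a4 and the first of Creb3l3. These Slc37a4 windows overlap and hold a match in common, so they are not separate. Neither the FOXO core, found in 3.65% of all promoters, nor the palindrome, found in 1.79%, matched any of the 13 windows. A match describes the letters of the window. Sites outside the windows, or with other letters, were not searched for, so no match does not mean that a gene lacks such sites.

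Levels per transcript length, as deposited TPM, spread over more than 2 orders of magnitude, and enzymes headed the order. Fbp1 was the most abundant at 721 ± 134 TPM (mean ± SD over 8 libraries, here and for the next values), ahead of Pck1 in 8 of 8 libraries. Pck1 followed at 444 ± 139 TPM, above Gpd1 in 8 of 8. Gpd1 at 307 ± 91.3 TPM and Creb3l3 at 280 ± 66.5 TPM were close neighbours, Gpd1 being higher in 6 of 8 libraries. Pcx reached 222 ± 46.9 TPM, G6pc 145 ± 59.4 TPM and Slc37a4 77.1 ± 12.0 TPM, each above the next in 8 of 8 libraries. Between Slc37a4 and the next gene lay the only gap in this order where the ranges of neighbours did not meet, since Pdk4 stood at 2.103 ± 0.749 TPM. Pdk4 and Ppargc1a, at 1.96 ± 0.295 TPM, did not differ beyond their spread, with Pdk4 higher in 3 of 8 libraries. Pck2 was lowest at 1.48 ± 1.13 TPM and below Ppargc1a in 7 of 8.

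**Figure D1:**
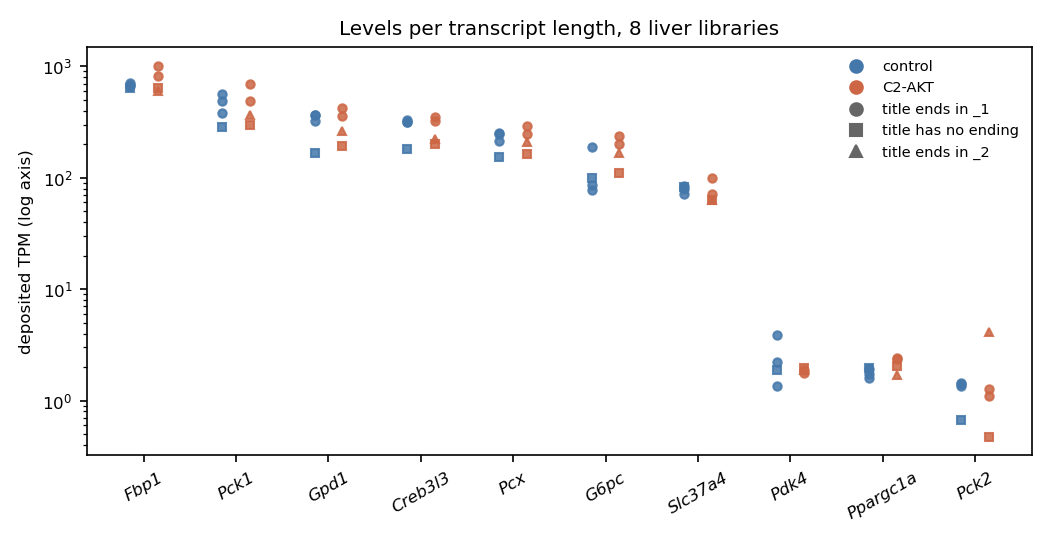
Deposited TPM (log axis) of the 10 genes in 8 liver libraries, ordered by mean; colour gives the genotype and the marker shape the ending of the library's title. From Fbp1 to Slc37a4 the means run from 721 to 77.1 TPM, and Pdk4, Ppargc1a and Pck2 have means of 2.103, 1.96 and 1.48 TPM.

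Between genotypes, edgeR called 0 of the 10 genes at an adjusted p below 0.05, against 4 of 15686 genes tested (0.0255%). At an unadjusted p below 0.05 there was 1 of 10, G6pc, against 5.13% of all genes tested. DESeq2's Wald test also called 0 of the 10. No gene of the 10 had all C2-AKT libraries above all control libraries, which held for 1.35% of genes tested, and none had them all below, which held for 1.63%. The estimates were positive for 7 and negative for 3, with a median log2 fold change of 0.08 against -0.01 over all genes tested. Over all genes tested, 7539 estimates were positive and 8147 negative. A group of 10 genes is small for such shares, and their difference from the background was not tested. Fold changes are log2 ratios of C2-AKT over control on CPM scaled by TMM (trimmed mean of M values), and the levels below are in the same CPM, given for replicates 2, 3, 4 and 5 in that order.

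**Figure D2:**
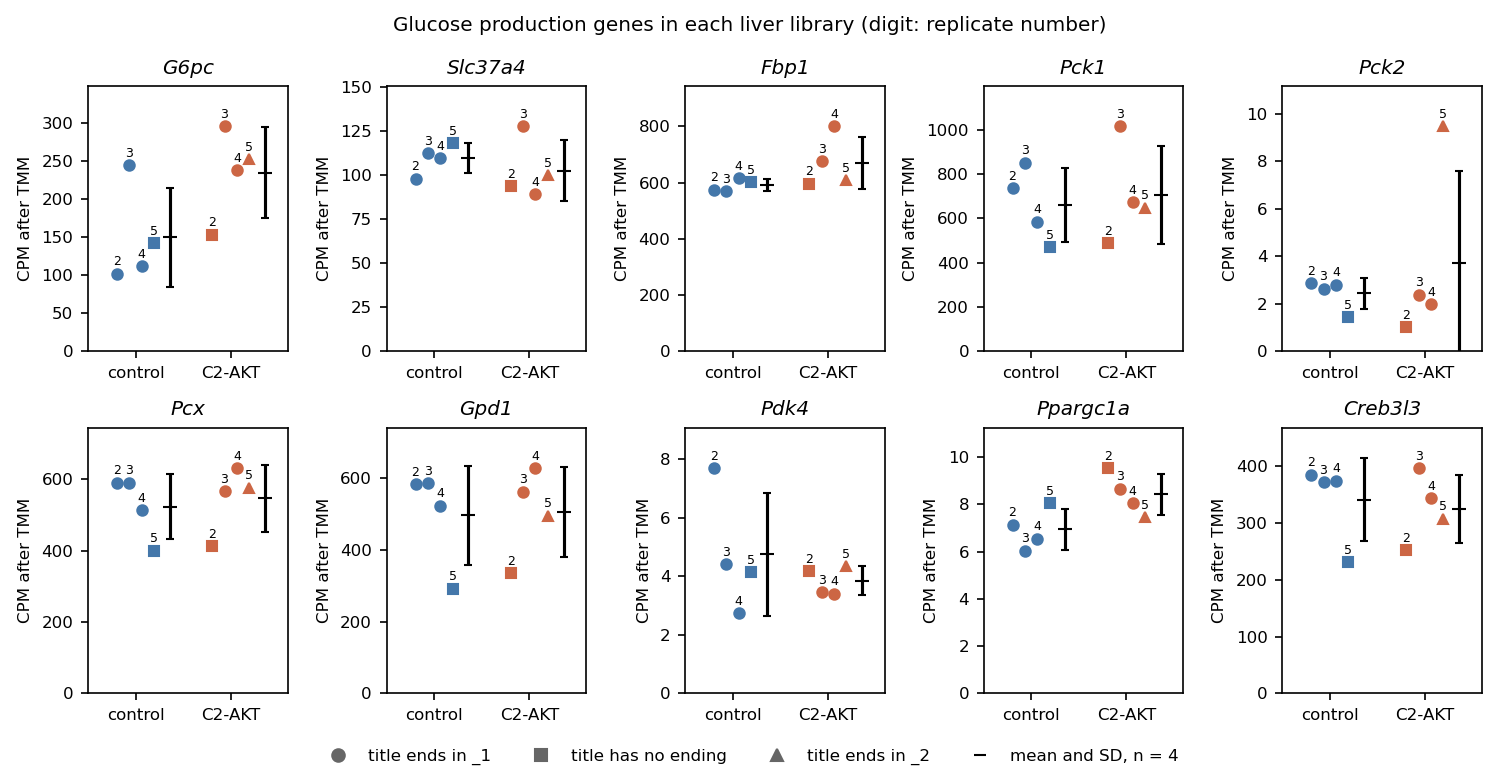
CPM after TMM scaling of each gene in 4 control and 4 C2-AKT libraries, with the replicate number above each point, the title ending as marker shape, and the mean and SD (n = 4) as a bar; each axis starts at 0, where the lower SD bar of Pck2 in C2-AKT is cut. The groups overlap in every panel, and the Pck2 point of C2-AKT replicate 5 lies at 9.46 CPM above the other 7.

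G6pc encodes the catalytic subunit of glucose-6-phosphatase, which frees glucose in the last step of both gluconeogenesis and glycogen breakdown (Entrez 14377, chromosome 11, 101367716 to 101377903, GRCm38.p6). It stood at 102, 244, 112 and 142 CPM in control libraries and at 153, 295, 238 and 252 CPM in C2-AKT libraries. All 4 C2-AKT libraries lay above control replicates 2, 4 and 5, while control replicate 3 lay above C2-AKT replicates 2 and 4. In C2-AKT replicate 5 the filter left out 17.2% of the counts, which are not in the base of its CPM, and on the deposited TPM scale it lay below control replicate 3, at 166 against 188 TPM. On the log2 scale the fold change was 0.64 ± 0.29 (SE; 95% interval 0.01 to 1.28), with an unadjusted p of 0.0478 and an adjusted p of 0.959 by edgeR. Over 22 alternative settings the estimate stayed positive, from 0.50 to 0.98, with adjusted p between 0.577 and 1. The highest value came without control replicate 3, where edgeR gave an adjusted p of 0.577. Within the 5 libraries whose titles end in _1 it was 0.81, and in a model that also fitted the endings 0.60; as the only library ending in _2, C2-AKT replicate 5 adds nothing to the genotype estimate of that model. It was 0.61 without C2-AKT replicate 5, which held most of the pancreatic transcripts.

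Slc37a4 encodes the transporter that brings glucose-6-phosphate into the endoplasmic reticulum to meet that phosphatase (chromosome 9, 44396946 to 44402966). Its levels were 97.8, 112, 109 and 118 CPM in control and 93.4, 127, 88.9 and 99.6 CPM in C2-AKT libraries. C2-AKT libraries held both the highest and the lowest value. Its log2 fold change was -0.10 ± 0.12 (95% interval -0.37 to 0.18). It was 0.03 within the libraries ending in _1, so its sign turned there, and leaving out C2-AKT replicate 3 or 4 gave -0.22 and -0.03. On the TPM scale, the ratio of G6pc to Slc37a4 was 1.096, 2.23, 1.07 and 1.20 in control and 1.72, 2.37, 2.78 and 2.60 in C2-AKT libraries. Control replicate 3 again lay among the C2-AKT values, and the other 3 control libraries lay below them.

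Fbp1 encodes fructose-1,6-bisphosphatase, the step that opposes phosphofructokinase (chromosome 13, 62864753 to 62888298). Control libraries were tightly grouped at 575, 570, 615 and 602 CPM, and C2-AKT libraries stood at 596, 676, 799 and 608 CPM. C2-AKT replicates 3 and 4 were the highest of the 8, and C2-AKT replicates 2 and 5 lay within the control range. On the deposited TPM scale C2-AKT replicate 5 was the lowest of the 8, at 605 TPM. The estimated log2 fold change was 0.18 ± 0.12 (95% interval -0.08 to 0.45; unadjusted p = 0.160, edgeR adjusted p = 0.9999). It was 0.33 within the libraries ending in _1 and 0.09 without C2-AKT replicate 4. Gm38679 overlaps Fbp1 and held 191 to 507 counts per library, against at least 28088 for Fbp1; the sources used here do not give the strand of counting.

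Pck1 and Pck2 encode the cytosolic and the mitochondrial phosphoenolpyruvate carboxykinase, and the cytosolic enzyme is the classic rate-controlling target of glucagon and insulin in mouse liver. Pck1 (chromosome 2, 173153073 to 173159274) stood at 736, 851, 585 and 470 CPM in control and 487, 1014, 671 and 648 CPM in C2-AKT libraries. The spread within each group was wider than the difference between the means of 661 ± 167 and 705 ± 222 CPM. The log2 fold change was 0.09 ± 0.24 (95% interval -0.44 to 0.63), and its sign turned to -0.04 without control replicate 5 and to -0.13 when C2-AKT replicate 3 was left out. Fat cells also transcribe Pck1. The adipocyte marker list of 8 genes summed to 41.0 to 77.3 CPM of all counts in control and 29.0 to 50.5 CPM in C2-AKT libraries, with Adipoq highest in control replicate 3 at 96 counts and at 0 counts in 3 libraries, and its part in the Pck1 values was not tested.

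Pck2 (chromosome 14, 55540263 to 55550020) was scarce, at 2.86, 2.64, 2.80 and 1.44 CPM in control and 1.01, 2.39, 1.98 and 9.46 CPM in C2-AKT libraries. C2-AKT replicate 5 held the highest value of the 8, with 437 counts against 54 to 177 in the others. That library is the one with high pancreatic acinar and endocrine markers, and their part in its Pck2 level was not tested. The log2 fold change of 0.60 ± 0.59 (95% interval -0.72 to 1.91) rested on it and was -0.44 without that library. It was -0.39 once the endings were fitted and -0.34 within the libraries ending in _1. As the only library ending in _2, C2-AKT replicate 5 adds nothing to either estimate. Pck1 made up 99.63 to 99.76% of the summed TPM of Pck1 and Pck2 in control libraries. In C2-AKT replicates 2, 3 and 4 the share was 99.84, 99.82 and 99.77%, above the control range, and in replicate 5 it was 98.88%, below it.

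Pcx encodes pyruvate carboxylase, the mitochondrial entry step from pyruvate (chromosome 19, 4510472 to 4621752). It stood at 591, 590, 513 and 400 CPM in control and 413, 568, 630 and 576 CPM in C2-AKT libraries. The lowest control and the lowest C2-AKT value were near each other, and so were the higher values of the groups. Pcx had a log2 fold change of 0.06 ± 0.17 (95% interval -0.31 to 0.44). It turned to -0.05 without control replicate 5 and to -0.01 without C2-AKT replicate 4, and was 0.18 without C2-AKT replicate 2.

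Gpd1 encodes the cytosolic glycerol-3-phosphate dehydrogenase, which links glycerol to the triose phosphates in either direction (chromosome 15, 99717587 to 99725014). Its levels were 583, 585, 524 and 292 CPM in control and 336, 562, 627 and 495 CPM in C2-AKT libraries. In each group 1 library (control replicate 5, C2-AKT replicate 2) lay well below the others. Gpd1 had a log2 fold change of 0.03 ± 0.25 (95% interval -0.52 to 0.58). Leaving out 1 library turned the sign for control replicate 5 (-0.16) and for C2-AKT replicates 3 (-0.03) and 4 (-0.10), and gave 0.18 for C2-AKT replicate 2.

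Pdk4 encodes a kinase that switches off pyruvate dehydrogenase and so spares pyruvate for carboxylation; it is a fasting-induced gene and a FOXO1 and PPARA target (chromosome 6, 5483351 to 5496278). It lies on the chromosome of ROSA26, 107.6 Mb away. It was low in all libraries, at 7.67, 4.41, 2.74 and 4.14 CPM in control and 4.17, 3.45, 3.41 and 4.35 CPM in C2-AKT libraries. Control libraries held both the highest value, in replicate 2, and the lowest, in replicate 4. The log2 fold change of -0.30 ± 0.27 (95% interval -0.91 to 0.31) became 0.03 without control replicate 2. Of the summed TPM of the 4 Pdk genes, Pdk4 made up 2.01 to 6.46% in control and 2.56 to 4.21% in C2-AKT libraries, with Pdk2 the main transcript.

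Ppargc1a encodes PGC-1alpha, a coactivator that glucagon induces in the fasted liver and that works with HNF4A and FOXO1 on Pck1 and G6pc (chromosome 5, 51454249 to 52115853). It stood at 7.15, 6.04, 6.55 and 8.04 CPM in control and 9.52, 8.66, 8.07 and 7.47 CPM in C2-AKT libraries. C2-AKT replicates 2, 3 and 4 lay above all control libraries, and C2-AKT replicate 5 lay within the control range. The log2 fold change was 0.28 ± 0.13 (95% interval -0.0021 to 0.56), with an unadjusted p of 0.0514 and an adjusted p of 0.968 by edgeR. With the endings fitted the estimate was 0.32, and within the libraries ending in _1 it was 0.35. With limma-voom on counts it was 0.285. With limma it was 0.10 on log2(FPKM + 1), 0.175 on log2(FPKM + 0.1) and 0.149 on log2(TPM + 1). The deposited FPKM of Ppargc1a, 0.857 to 1.24, lay near the added constant of 1. In C2-AKT replicate 5 the filter left out 17.2% of the counts, which are not in the base of its CPM. The part of either in these estimates was not tested.

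Creb3l3 encodes CREB-H, a liver transcription factor tethered in the endoplasmic reticulum and released on fasting, which acts on lipid and gluconeogenic genes (chromosome 10, 81084329 to 81098872). Its levels were 385, 372, 375 and 232 CPM in control and 253, 396, 344 and 308 CPM in C2-AKT libraries. Control replicate 5 and C2-AKT replicate 2 were the lowest of the 8. Creb3l3 had a log2 fold change of -0.07 ± 0.19 (95% interval -0.49 to 0.35). Its sign turned to 0.02 with the endings fitted and to 0.04 when C2-AKT replicate 2 was left out, and leaving out control replicate 5 gave -0.21. For Creb3l3, Pck1, Pck2, Pcx, Slc37a4, Gpd1 and Pdk4, as for Fbp1, the adjusted p by edgeR was 0.9999.

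**Figure D3:**
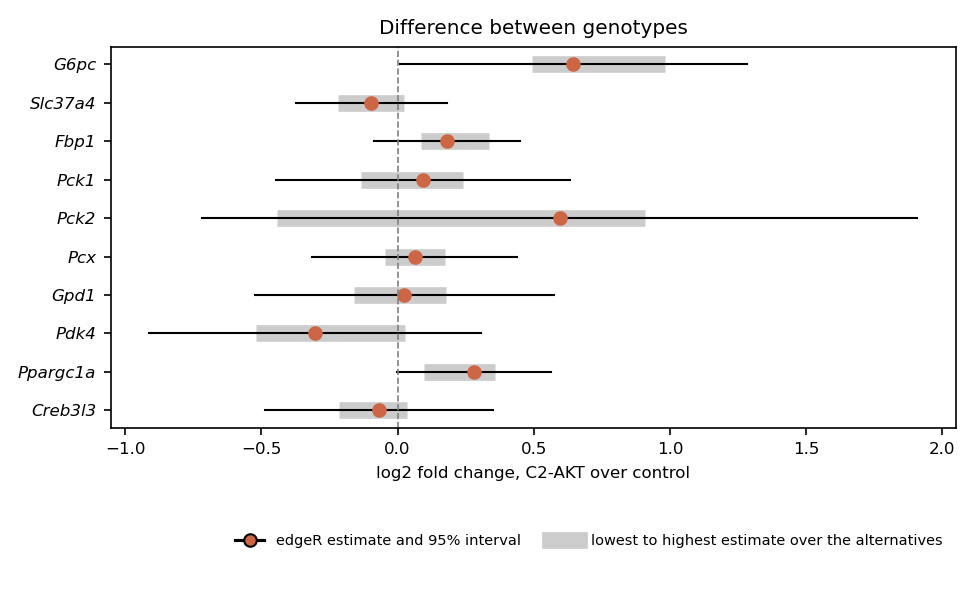
Log2 fold change of each gene, C2-AKT over control, as the edgeR estimate (point) with its 95% interval (line) and the lowest to highest estimate over the alternative settings (grey bar). The interval of G6pc runs from 0.01 to 1.28 and is the only one of the 10 that leaves out 0, and the grey bar of Pck2 runs from -0.44 to 0.91.

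The library titles end in _1 for control replicates 2, 3 and 4 and C2-AKT replicates 3 and 4, in _2 for C2-AKT replicate 5, and carry no ending for control replicate 5 and C2-AKT replicate 2. What the endings stand for is not given. This comparison was chosen after the values were seen. With genotype kept in the edgeR model, Gpd1 was lower in the 2 libraries with no ending than in the 5 ending in _1, by a log2 difference of -0.89 ± 0.10 (SE; adjusted p = 0.00238). The difference was -0.63 ± 0.10 for Creb3l3 (edgeR adjusted p = 0.00612). It was -1.02 ± 0.17 for Pck2 (edgeR adjusted p = 0.00762) and -0.52 ± 0.10 for Pcx (edgeR adjusted p = 0.0174). Those 4 of 10 genes were called lower and 0 of 10 higher, where 8.31% of all genes tested were called lower and 1.99% higher. Pck1 had a like estimate of -0.70 but missed the threshold, with an adjusted p of 0.0573 by edgeR.

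For Pck1, Pcx, Creb3l3, Gpd1 and Pck2, 5 of the 10, both libraries with no ending lay below the other 6, as they did for 15.8% of all genes tested. Gpd1, for example, stood at 292 and 336 CPM in that pair, at 524 to 627 CPM in the libraries ending in _1, and at 495 CPM in the library ending in _2. The remaining genes did not pass the test of the ending. The estimate was -0.42 for G6pc, -0.12 for Fbp1, -0.02 for Slc37a4, 0.01 for Pdk4 and 0.24 for Ppargc1a, with adjusted p between 0.205 and 0.991 by edgeR. TMM factors of the pair were 0.9333 and 0.9477, below the 0.9956 to 1.04 of the other libraries, and their part in these differences was not tested. Across the 8 libraries the profiles of Pcx, Creb3l3 and Gpd1 were the closest of the 10, with root mean square differences of mean-centred log2 CPM of 0.15 (Pcx and Creb3l3), 0.159 (Creb3l3 and Gpd1) and 0.166 (Pcx and Gpd1). G6pc had none so near, its closest being Pck1 at 0.46.

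**Figure D4:**
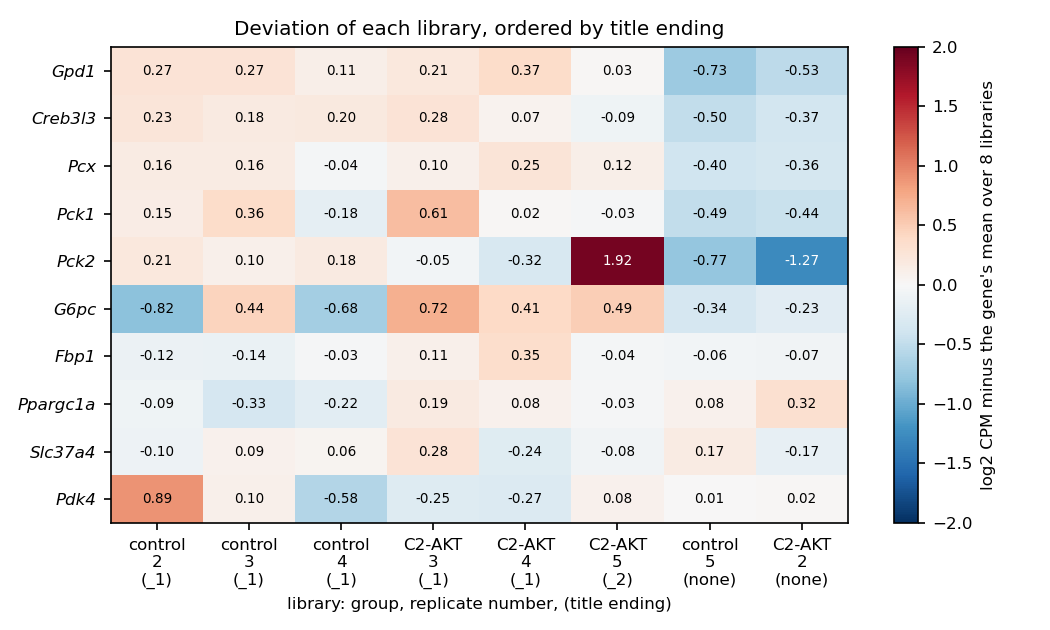
Deviation of each library from the gene's own mean, in log2 CPM, with libraries in columns ordered by title ending and genes in rows. Gpd1, Creb3l3, Pcx, Pck1 and Pck2 are below their mean (blue) in both columns with no ending, 1 from each genotype. In those columns, control replicate 5 and C2-AKT replicate 2, G6pc (-0.34 and -0.23) and Fbp1 (-0.06 and -0.07) are below theirs by less. Pck2 stands out as red in C2-AKT replicate 5.

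The other genes of the pathway were taken as 7 lists of 108 genes, of which 105 were tested; Gyk was not matched to a row, and G6pc2 and Foxo6 did not pass the count filter. By edgeR 0 of the 105 were called, 12 had an unadjusted p below 0.05 (5.13% of all genes tested did), and DESeq2's Wald test called 0. Estimates were positive for 54 and negative for 51, with a median log2 fold change of 0.01 against -0.01 over all genes tested. The groups did not overlap for 2 of the 105 genes higher and 2 lower in C2-AKT, near the 1.35% and 1.63% of all genes tested. No adjusted p below comes from a list alone.

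Among 19 substrate enzymes and carriers, 12 estimates were positive and 7 negative, with a median of 0.03. Gpd2, the mitochondrial partner of Gpd1 in the glycerol phosphate shuttle, had the smallest p, at 0.23 ± 0.10 on the log2 scale (unadjusted p = 0.0399, edgeR adjusted p = 0.954). Got1, the cytosolic aspartate aminotransferase, had 0.32, and Ldha, a lactate dehydrogenase subunit, -0.27. Of 11 reversible and final steps, 6 were positive and 5 negative, with a median of 0.05 and none at an unadjusted p below 0.05 by edgeR. Slc2a2, the glucose transporter GLUT2 through which glucose leaves the hepatocyte, stood at 228 CPM in control libraries and 255 CPM in C2-AKT libraries, with a log2 fold change of 0.16. Aldoa, an aldolase, had -0.15, and Fbp2, the muscle form of the bisphosphatase, had 0.79 ± 0.73 at 0.277 and 0.484 CPM. Fbp2 held 4 to 59 counts per library, and its estimate ran from -0.299 to 1.15 over the alternatives, with the sign turned in 3.

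Of 11 opposing glycolytic enzymes, 7 were positive and 4 negative, with a median of 0.04. Pklr, the liver pyruvate kinase that opposes the carboxykinase route, stood at 124, 182, 178 and 113 CPM in control and 167, 194, 244 and 196 CPM in C2-AKT libraries. C2-AKT replicate 2 lay below control replicates 3 and 4, and the other C2-AKT libraries lay above all control libraries. Its log2 fold change was 0.42 ± 0.18 (unadjusted p = 0.0400, edgeR adjusted p = 0.954). Pfkfb1, which sets the level of fructose-2,6-bisphosphate, had -0.21 and the hexokinase Hk3 0.22.

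Among 32 receptors and regulators, 15 estimates were positive and 17 negative, with a median of -0.06 and 4 at an unadjusted p below 0.05. Trib3, a pseudokinase that binds AKT, stood at 3.57, 3.53, 4.22 and 3.26 CPM in control and 2.14, 2.01, 2.83 and 1.67 CPM in C2-AKT libraries. The groups did not overlap, and its log2 fold change was -0.75 ± 0.18 (unadjusted p = 0.00234, edgeR adjusted p = 0.611). Nr0b2, which encodes the repressor SHP, stood at 25.8, 30.9, 18.0 and 25.7 CPM in control and 5.31, 16.1, 13.8 and 14.1 CPM in C2-AKT libraries. These groups did not overlap either, and the log2 fold change was -1.03 ± 0.30 (unadjusted p = 0.00651, edgeR adjusted p = 0.762). Foxa2, a liver transcription factor of the fasted state, had 0.59 ± 0.18 and Bhlhe40, a clock-linked repressor, 0.51 ± 0.17, at edgeR adjusted p of 0.779 and 0.832. Among other regulators, picked here for their known roles and not by a rule, the estimate was 0.07 for the insulin receptor Insr, 0.07 for Creb1, 0.14 for Foxo3, -0.06 for Foxo1, -0.10 for Crtc2, -0.21 for the glucagon receptor Gcgr and -0.22 for Hnf4a. The sign turned in 1 alternative each for Creb1, Foxo3, Foxo1 and Crtc2.

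Of 10 genes of the pyruvate dehydrogenase complex, its kinases and its phosphatases, 5 were positive and 5 negative, with a median of -0.00. Pdk1, a kinase of the same family as Pdk4, stood at 43.0, 44.7, 48.2 and 50.2 CPM in control and 56.4, 51.2, 52.0 and 59.0 CPM in C2-AKT libraries. The groups did not overlap, and its log2 fold change was 0.23 ± 0.09 (edgeR adjusted p = 0.891). Pdp2, a phosphatase that switches the complex back on, had -0.29 ± 0.11 (edgeR adjusted p = 0.923), and the related Pdp1 -0.31. Of 15 PPARA and CREB3L3 targets, 6 were positive and 9 negative, with a median of -0.05. Cidec, a lipid droplet protein, had the smallest p among them, at -0.84 ± 0.30 on the log2 scale (edgeR adjusted p = 0.858), and Acadm, a fatty acid oxidation enzyme, had 0.21 ± 0.10 without overlap between the groups. Angptl4, a lipoprotein lipase inhibitor, had -0.39.

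The 7 other FOXO1 targets had a median log2 fold change of -0.22, with 3 positive and 4 negative. Bcl6, a transcriptional repressor, stood at 88.2, 34.5, 14.7 and 21.7 CPM in control and 22.0, 12.4, 8.67 and 8.89 CPM in C2-AKT libraries. Its log2 fold change was -1.61 ± 0.53 (edgeR adjusted p = 0.827) and -0.86 without control replicate 2. Igfbp1, an insulin-repressed secreted binding protein, stood at 7.67, 3.81, 3.29 and 3.42 CPM in control and 2.35, 3.37, 2.25 and 2.36 CPM in C2-AKT libraries. Its log2 fold change was -0.82 ± 0.29 (edgeR adjusted p = 0.854) and -0.44 without that library. Irs2, an insulin receptor substrate, had -0.57 ± 0.23 (edgeR adjusted p = 0.926) and -0.31 without it. Control replicate 2 was thus the highest of the 8 for Bcl6, Igfbp1, Irs2 and Pdk4, and the lowest of the 8 for G6pc, which FOXO1 also activates. G6pc without that library had a log2 fold change of 0.50.

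**Figure D5:**
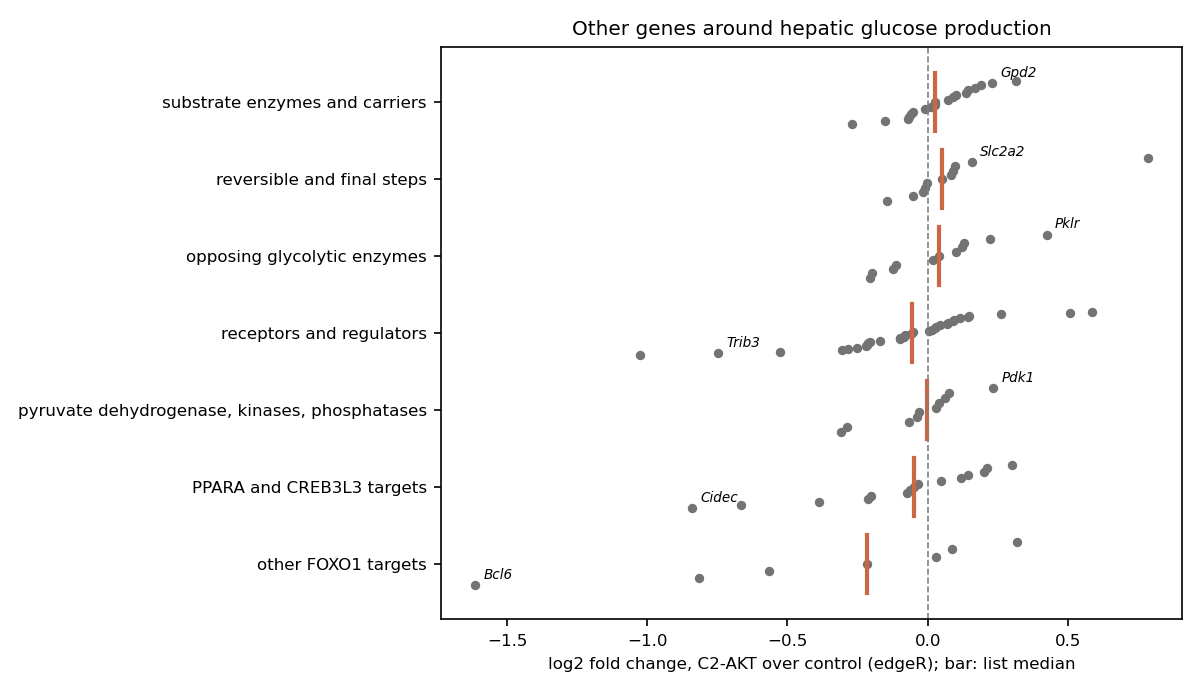
Log2 fold changes (edgeR, C2-AKT over control) of the 105 tested genes in 7 lists; each point is a gene, the bar is the list's median, and the gene with the smallest p in each list is named. The medians lie between -0.22 for the other FOXO1 targets and 0.05 for the reversible and final steps, and Bcl6 lies farthest from 0 at -1.61.

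Likeness of profile was measured as the root mean square difference of mean-centred log2 CPM over the 8 libraries, among 9046 genes (9047 for Pdk4) with a mean of at least 5 CPM. Closest to G6pc were Mfsd2a (0.158), Tsc22d3 (0.17) and Lipg (0.196), where the median over genes was 0.576. Closest to Pck1 were Slc16a11 (0.118), Tubg1 (0.141) and Nup62 (0.148), with a median over genes of 0.393. Closest to Ppargc1a were Ap4s1 (0.0588), Albfm1 (0.0681) and Mpc1 (0.0812), with a median over genes of 0.251. Mpc1 encodes a subunit of the mitochondrial pyruvate carrier, which feeds Pcx. Closest to Pdk4 were Rab11fip4 (0.155), Rtn4rl1 (0.169) and Rab30 (0.203), with a median over genes of 0.436. A gene that varies little is near to any flat profile, and the libraries share their depth and title endings, so these are descriptions of 8 libraries.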

How the data were processed

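The deposited table gives a count, an FPKM and a TPM per gene and library. The submitters' processing notes name HISAT2 2.1.0, StringTie 2.1.3b, Trimmomatic and bcl2fastq 2.20.0, and the builds GRCm38 and mm10; the sources used here give neither settings nor strandedness. Counts are whole numbers as deposited and were used without change. FPKM and TPM, which per the file headers are the authors' length-scaled values, served for alternatives and for levels between genes.

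Counts were filtered with filterByExpr, scaled by TMM and tested with edgeR 4.0.16 (quasi-likelihood, two-sided, no covariate, 4 against 4 libraries, Benjamini-Hochberg over 15686 genes, threshold 0.05) in R 4.3.3. DESeq2 1.42.0 and limma 3.58.1 gave alternatives. The fit was also run on simulated counts of genes that had already passed the filter, so the filter was hardly tested. That simulation had no library like C2-AKT replicate 5 and no effect of the title endings, and its outcome is not reported here. The members and lists were chosen with earlier results of these data known. All 10 members are named, with the 3 genes of smallest p in each list, other list genes where a step is described, and the 3 nearest profiles of 4 members. Some listed genes are not reported here.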

Additional observations from a re-analysis of the deposited data

Results flagged for a closer look

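Within the 4 libraries of a group, 3 values of the 10 genes lay far from the rest by Dixon's test, of 20 groups of values examined; chance alone marks about 1 in 20 groups. Creb3l3 was far below the other control libraries in control replicate 5, at 232 CPM, with a gap of 0.914 of the group's range. Pck2 was low in the same library, at 1.44 CPM, with a gap of 0.849 of the range. Pck2 was far above the other C2-AKT libraries in C2-AKT replicate 5, at 9.46 CPM, with a gap of 0.836 of the range. Control replicate 5 is a library with no title ending, and C2-AKT replicate 5 is the library with most of the pancreatic transcripts.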

How the results depend on the processing

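Over 22 alternatives, 205 of 219 fold changes of the 10 genes kept their direction and stayed on the same side of the threshold, 14 turned their sign and none passed it. Genes called higher numbered 0 in the reported test, 1 with library totals alone, 1 with the title endings fitted and 30 with DESeq2's Wald test. Genes called lower numbered 4, 17 within titles ending in _1 and 28 with DESeq2's Wald test. With each library left out in turn, 0 to 3 were called higher and 1 to 16 lower. With the title endings fitted, the log2 fold change was 0.017 for Creb3l3 and -0.39 for Pck2. Within titles ending in _1 it was 0.025 for Slc37a4 and -0.34 for Pck2. C2-AKT replicate 5 adds nothing to either Pck2 value. The cause of these turns was not tested. With each library left out in turn, the log2 fold change ran from -0.13 to 0.24 for Pck1, -0.047 to 0.18 for Pcx and -0.21 to 0.035 for Creb3l3. For Gpd1 it ran from -0.16 to 0.18, for Pdk4 from -0.49 to 0.029 and for Pck2 from -0.44 to 0.91. Pck2 has no value in the limma test on log2(FPKM + 0.1), where it did not pass the filter. With a replicate block, edgeR called 0 genes higher and 4 lower. G6pc then had 0.69, with an unadjusted p of 0.00222 and an adjusted p of 0.622 by edgeR. Over its alternatives the adjusted p of G6pc ran from 0.577 to 1. Deviations of libraries with the same number had correlations of -0.131, -0.0155, 0.0692 and -0.0635. The highest between the groups was 0.295, for control replicate 5 and C2-AKT replicate 2, which carry no title ending. Whether same numbers mark pairs cannot be told from these values. Intervals of Pck2, Pdk4 and Ppargc1a rest on 54 to 535 counts per library.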
